A study of Mus musculus with 2 samples.

Results

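Parathyroid cells were followed here by how much of their messenger RNA was Pth, the transcript of parathyroid hormone. Single-cell RNA-seq had been done on parathyroid glands that grew from mouse embryonic stem cells (ESCs) in Gcm2-/- hosts on a BDF1B6 background. The ESCs used for complementation carried Pth-tdTomato. There is 1 group with 2 libraries and no untreated or wild-type control. Replicate 1 is a pool from 3 mice, 9 to 12 weeks old and with blood chimerism of 50 to 70%, and replicate 2 a pool from 5 mice, 6 to 13 weeks old and with 60 to 70%. Males and females were pooled, and the cells cannot be assigned to single mice. Both pools share this host genotype and this ESC reporter, host cells can be among the kept cells, and the extent of the Gcm2 deletion is not stated. Barcodes were kept with at least 500 genes, under 15% mitochondrial unique molecular identifiers (UMIs, counted transcripts) and under 5% haemoglobin UMIs. Parathyroid cells were chosen by their Pth value, as kept barcodes with at least 5% of UMIs from Pth. This gave 2916 parathyroid cells of 4578 kept cells, 673 of 1259 in replicate 1 (53.5%) and 2243 of 3319 in replicate 2 (67.6%). In each library the cells were ranked by their Pth share and divided into 4 quartiles, and the top quartile (168 and 560 cells) was compared with the bottom quartile (169 and 561 cells). Pth was then removed from counts and totals, so that every level below is in UMIs per 1000000 UMIs other than Pth (CPM).

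Parathyroid chief cells hold blood calcium steady by secreting parathyroid hormone. The hormone is made as a longer precursor that enters the endoplasmic reticulum (ER), is cut, and is stored with chromogranin A in granules. Calcium acts through the calcium-sensing receptor, encoded by Casr, to restrain secretion, and calcium, phosphate and vitamin D also set the amount of Pth messenger RNA, in large part through its stability. Gcm2 is the transcription factor on which the gland's formation depends.

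Pth (chromosome 7, 113385580 to 113388570, minus strand, GRCm38) spread over about the same range in both pools, which shared 1 cell barcode among their parathyroid cells. Its share of a cell's UMIs ran from 6.02% to 28.9% with a median of 14.1% in replicate 1, and from 5.40% to 28.7% with a median of 15.8% in replicate 2. The limit at 5% fell in a thinly filled stretch. The highest kept cells below it were at 4.23% and 4.89%, and 15 and 22 kept cells lay between 1% and 5%, against 43 and 55 between 5% and 10%. Cells below the limit had median Pth shares of 0.146% and 0.152%. The quartile limits, in contrast, cut a continuous distribution with 1 broad peak. Neighbouring cells at the lower limit had 12.3% on both sides in replicate 1 and 13.9% in replicate 2. At the upper limit they had 16.0% and 17.7%. A quartile is therefore a range of Pth load and not a cell type.

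**Figure D1:**
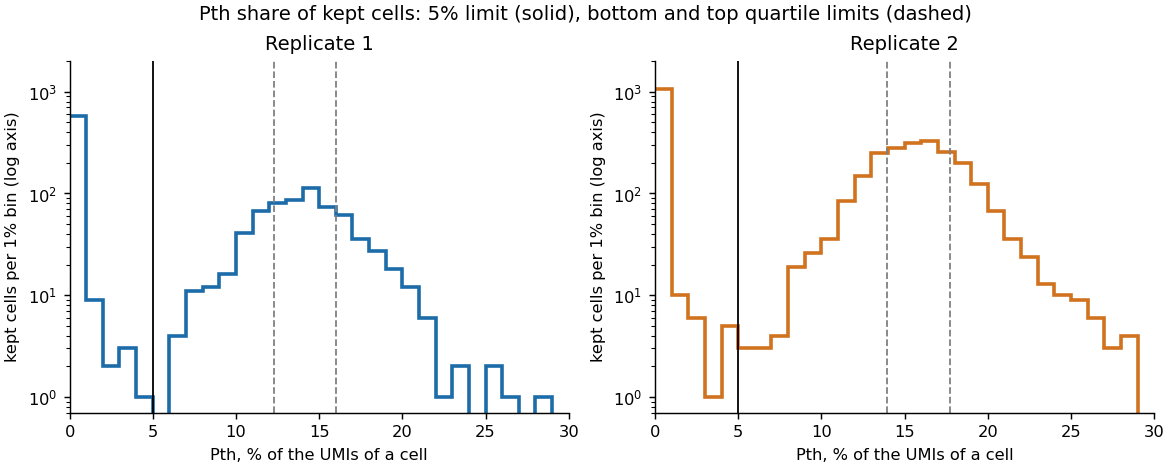
Number of kept cells (log axis) per 1% bin of the Pth share of a cell's UMIs (x axis), 1 panel per library; empty bins lie below the axis. The solid line marks the 5% limit and the dashed lines the upper end of the bottom quartile (12.3% and 13.9%) and the lower end of the top quartile (16.0% and 17.7%), which cut a single broad peak.

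The markers Chga, Gcm2 and Casr were set against the label. Inside the limit Gcm2 was at 182 and 189 CPM, against 7.13 and 4.93 CPM in kept cells outside it. Casr was at 408 and 373 CPM inside and 17.2 and 10.4 CPM outside. Chga, a granin, was at 98210 and 90690 CPM inside and at 1851 and 1059 CPM outside. The cells just outside the limit, with 1% to 5% Pth, also held parathyroid markers, with Gcm2 at 175 and 167 CPM from 31 and 27 UMIs and Casr at 492 and 302 CPM. The rule therefore left out a small number of cells that carry the same markers at a lower Pth load.

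Pth itself rose from 12.1 UMIs per 100 other UMIs in the bottom quartile through 15.3 and 17.6 to 21.7 in the top quartile of replicate 1. In replicate 2 it rose from 14.1 through 17.5 and 20.1 to 24.1. These values describe the ranking, with ratios of 1.80 and 1.71 between the ends, and carry no test.

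Depth and mitochondrial share were compared across the quartiles, without a test, since depth is part of the ranking measure. The median total per cell was 37018, 39249.5, 38472 and 36385 UMIs from bottom to top in replicate 1, and 31040, 31036, 30471 and 30150 UMIs in replicate 2. UMIs other than Pth had medians of 32899 in the bottom and 30012 in the top quartile of replicate 1, and 27130 and 24214 in replicate 2. In cells thinned to 10000 such UMIs, median genes per cell fell slightly, from 3433 to 3311 and from 3486.5 to 3377.5. The thinning left out 23 and 68 shallower cells, more of them from the top quartile. These were 5 bottom and 14 top quartile cells in replicate 1, and 19 and 38 in replicate 2. The unthinned medians were 6225 and 5884 genes in replicate 1 and 5855 and 5440 in replicate 2. The mitochondrial share of all UMIs showed no steady direction, with medians of 3.49%, 3.39%, 3.55% and 3.47% in replicate 1 and 3.27%, 3.33%, 3.37% and 3.30% in replicate 2. As a share of UMIs other than Pth its median went from 3.87% to 4.20% and from 3.74% to 4.12%. Across cells, Spearman's rho with the Pth share was -0.07 and -0.19 for UMIs other than Pth and -0.05 and 0.01 for the mitochondrial share. These are descriptions over 673 and 2243 cells that share libraries, depth and totals. Barcodes above 100000 UMIs, which can hold more than 1 cell, numbered 8, 16, 13 and 4 from bottom to top in replicate 1 and 1, 0, 1 and 1 in replicate 2.

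A measure that moved steadily with the Pth load was the share of UMIs in long genes, here those that span at least 100000 bases of the genome. Its median fell from 14.3% through 13.3% and 12.1% to 10.7% of UMIs other than Pth in replicate 1, and from 13.6% through 12.4% and 11.5% to 10.4% in replicate 2. Spearman's rho with the Pth share was -0.55 and -0.54, again as a description. Malat1, a nuclear-retained RNA, fell as a share of a cell's other UMIs from a median of 7.52% to 6.42% and from 6.66% to 5.84%. In the test of summed UMIs below, Malat1 was not called, and its log2 fold change of -0.07 is too small to read as a direction. Markers of other cell types sat mainly in the bottom quartile, where they averaged 0.0873% and 0.0840% of UMIs other than Pth, against 0.0148% and 0.0219% in the second quartile and 0.0276% and 0.0269% in the top one. The shares above an outlier limit were even at both ends, 7.69% and 10.1% of bottom and top cells in replicate 1 and 7.31% and 7.32% in replicate 2.

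**Figure D2:**
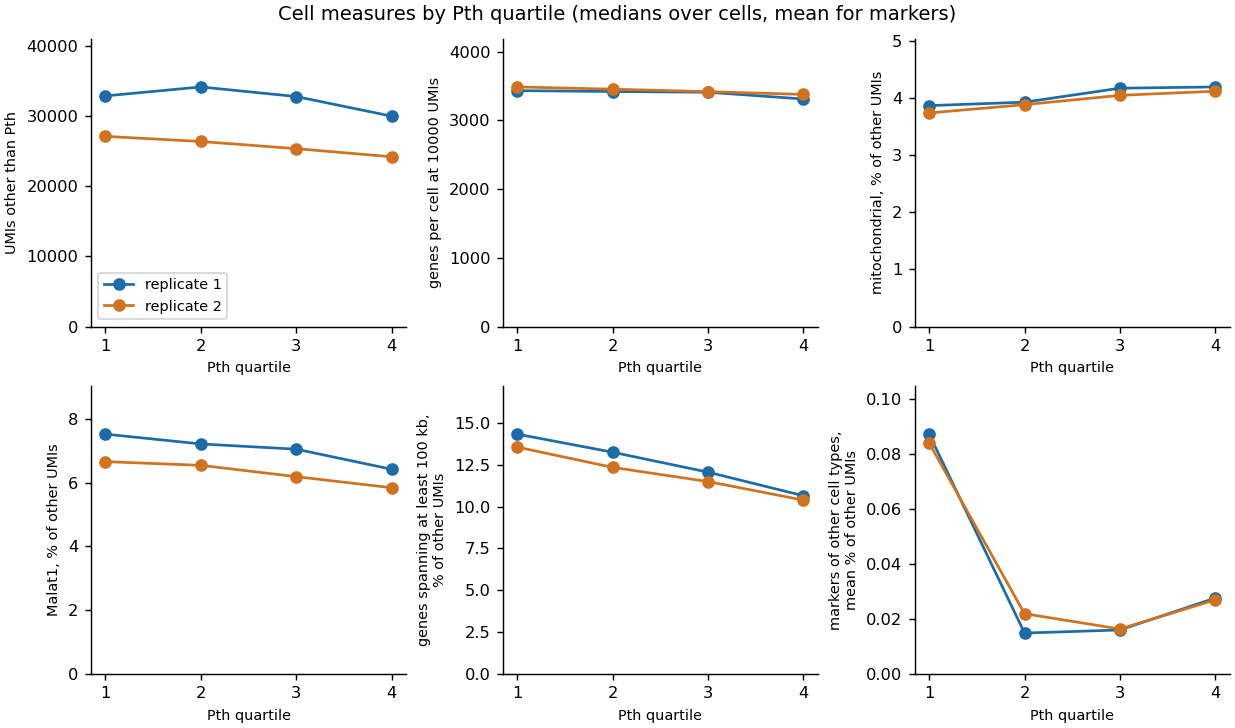
Cell measures (y axes) by Pth quartile (x axis, 1 bottom, 4 top), 1 line per library, as medians over cells and, for markers of other cell types, the mean. The long gene share falls in every step from 14.3% to 10.7% and from 13.6% to 10.4%, while markers of other cell types are highest in the bottom quartile.

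The main comparison asked which genes other than Pth differ between cells of high and low Pth load. UMIs were summed per library and quartile and tested with edgeR, with the library as a block. Of 14484 genes tested, 2201 were higher (15.2% of those tested) and 2479 lower (17.1%) in the top quartile at an adjusted p of 0.05. These 2 shares are the background for the counts of list members below. The higher genes moved little, with a median log2 fold change of 0.34, and 103 of them rose at least 1.5-fold. The lower genes had a median of -0.42, and 769 fell at least 1.5-fold. Levels rose at every step from bottom to top in both libraries for 644 of the higher genes (29.3%) and fell at every step for 979 of the lower ones (39.5%). Among genes without a call these shares were 0.112% and 2.04%. Called genes are chosen for a difference between the end quartiles, so this gap follows in part from the call. Steps were scored on plain totals, while the calls used scaled ones, as given below. The sign was the same within each library for 2196 and 2461 of the called genes, and over all tested genes 34.3% were higher and 39.5% lower in the top quartile of both libraries. The split between higher and lower depends on the scaling. TMM scaling, used here, put the median of all genes at -0.03, and plain totals put it at -0.14, a shift of -0.10, with 1347 genes higher (9.3%) and 3594 lower (24.8%). Changes of about 0.1 or less are therefore not read as directions below. The p-values set quartile differences against their variation between 2 pools of mice, moderated by a trend over all genes. With 3 residual degrees of freedom, part of their precision is borrowed across genes and is not replication over mice.

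The reporter rose with Pth. tdTomato, named as a Pth reporter in the labels, was at 9765, 11200, 12330 and 13760 CPM from bottom to top quartile in replicate 1. In replicate 2 it was at 10860, 12600, 13840 and 15200 CPM. It rose at every step in both libraries, and its log2 fold change was 0.60 ± 0.03 (SE, adjusted p = 7.6e-10, edgeR). The ratio of top to bottom was 1.41 and 1.40, below that of Pth. The labels do not tell whether reads of tdTomato and Pth can be counted for each other.

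Chga (ENSMUSG00000021194, chromosome 12) rose with Pth. It was at 92680, 97360, 96490 and 108000 CPM in replicate 1 and at 84720, 90180, 92500 and 96130 CPM in replicate 2, so that top and bottom did not overlap. The log2 fold change was 0.31 ± 0.03 (adjusted p = 2.6e-07, edgeR), and 0.20 on plain totals.

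Casr (ENSMUSG00000051980, chromosome 16, 36493696 to 36562141) went the other way. It was at 462, 405, 401 and 357 CPM in replicate 1 and at 414, 386, 353 and 332 CPM in replicate 2, a fall at every step in both. The log2 fold change was -0.24 ± 0.04 (adjusted p = 0.000217, edgeR). Casr spans 68446 bases and is not part of the long gene share. Genes of at least 100000 bases are part of it, so their values in cells matched on it are not independent of the matching. Cells were also ranked by Pth within 10 bins of their long gene share, so that the quartiles were matched on it. Casr was then at 0.05 with an adjusted p of 0.63 (edgeR), a change too small to read as a direction.

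Gcm2 (chromosome 13, 41101427 to 41111035) was close between the quartiles. It was at 175, 198, 180 and 173 CPM in replicate 1 and at 179, 190, 197 and 189 CPM in replicate 2, and the bottom and top quartiles overlapped. Its log2 fold change of 0.15 ± 0.05 passed the test (adjusted p = 0.035, edgeR), but was 0.04 on plain totals, with an adjusted p of 0.58, and 0.09 without replicate 2. At least 1 Gcm2 UMI was present in 97.0% and 96.8% of bottom and 90.5% and 92.7% of top quartile cells, at the median depths given above.

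Gfp, whose meaning the labels do not give, was at 5216, 6227, 5958 and 6158 CPM in replicate 1 and at 4719, 4676, 4732 and 4434 CPM in replicate 2. The libraries differ in direction on this scale, and the call (0.18 ± 0.05, adjusted p = 0.012, edgeR) was lost on plain totals (0.07, adjusted p = 0.30). Its log2 fold change was 0.01 without replicate 1 and 0.35 without replicate 2. In cells matched on their long gene share Gfp was called lower (-0.20, adjusted p = 0.00044, edgeR), also with cells rich in other cell types' markers left out (-0.30, adjusted p = 0.00029).

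**Figure D3:**
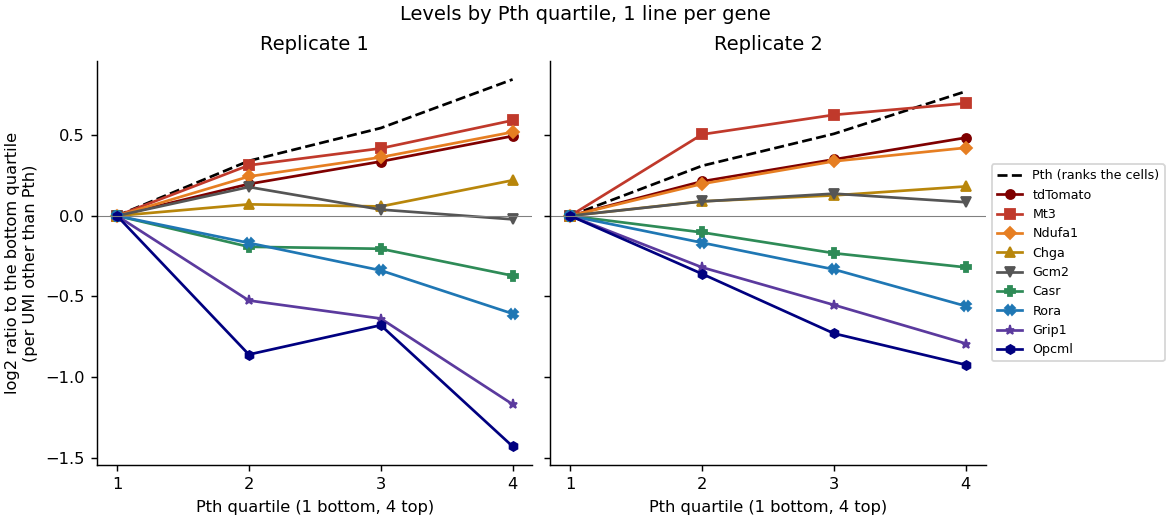
log2 ratio of each gene's CPM to the bottom quartile (y axis, plain totals of UMIs other than Pth) by Pth quartile (x axis), 1 panel per library and 1 line per gene; the dashed line is Pth, which ranks the cells. tdTomato, Mt3 and Ndufa1 rise, Gcm2 stays near 0, and Casr, Rora, Grip1 and Opcml fall in both libraries.

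The start regions of Pth, of Chga, which rose with it, and of Casr, which fell, are shown to compare their letters. They are the 250 bases before and 50 bases after the RefSeq start (GRCm38.p6), at chr7:113388524-113388823 (minus strand), chr12:102554691-102554990 (plus) and chr16:36562085-36562384 (minus). Capitals mark matches to 3 motifs, searched on both strands. The TATA box was searched as TATAAA. The core of the cyclic AMP response element was searched as TGACG, and the GC box by the letters GGGCGG.
Pth: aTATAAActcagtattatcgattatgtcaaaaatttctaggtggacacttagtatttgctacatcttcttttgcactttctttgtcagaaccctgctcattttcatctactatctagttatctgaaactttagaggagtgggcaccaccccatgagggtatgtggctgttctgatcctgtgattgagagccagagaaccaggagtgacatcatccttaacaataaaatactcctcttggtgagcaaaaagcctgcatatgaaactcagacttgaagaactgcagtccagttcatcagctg
Chga: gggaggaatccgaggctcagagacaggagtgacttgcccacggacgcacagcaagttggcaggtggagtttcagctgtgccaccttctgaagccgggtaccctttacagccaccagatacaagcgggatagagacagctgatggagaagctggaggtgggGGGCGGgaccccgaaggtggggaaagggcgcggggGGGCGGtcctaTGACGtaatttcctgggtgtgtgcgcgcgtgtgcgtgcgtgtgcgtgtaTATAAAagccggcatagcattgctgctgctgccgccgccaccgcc
Casr: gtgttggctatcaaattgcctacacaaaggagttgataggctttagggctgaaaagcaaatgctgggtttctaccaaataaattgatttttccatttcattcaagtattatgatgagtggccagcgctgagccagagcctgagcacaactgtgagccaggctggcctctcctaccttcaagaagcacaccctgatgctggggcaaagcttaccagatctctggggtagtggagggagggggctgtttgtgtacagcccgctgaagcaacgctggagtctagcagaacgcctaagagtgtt
The Chga window holds all 3 motifs, with its TATA box motif 5 bases past the start and not before it. The Pth window holds a TATA box motif at its far end alone, and the Casr window none of these letters. Over the 10913 of 14484 tested genes with a promoter in the table, the TATA box motif was in 7.90% of promoters of genes called higher and 8.43% of those called lower, against 7.25% of promoters of all tested genes. The cyclic AMP element core was in 36.1% and 28.0%, against 30.1% of promoters of tested genes, and the GC box in 63.0% and 60.8%, against 60.2%. Over all promoters of the table, which include those of genes not tested here, the shares were 13.6%, 20.8% and 35.7%. A match is a run of letters and says nothing of binding.

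Genes of the respiratory chain rose together with the Pth load. Of 75 nuclear-encoded subunits tested, 72 were higher and 0 lower, with a median log2 fold change of 0.44, where the median of all tested genes was -0.03. By edgeR 0 were lower at an unadjusted p of 0.05 too, and DESeq2 called 72 higher and 0 lower. On plain totals 70 were higher. Ndufa1, a complex I subunit, was at 363, 430, 467 and 521 CPM in replicate 1 and at 385, 441, 486 and 515 CPM in replicate 2, a rise at every step (0.57 ± 0.04, adjusted p = 1.8e-08, edgeR). Atp5e, of ATP synthase, rose by 0.53 ± 0.03 and Cox6c, of cytochrome oxidase, by 0.51 ± 0.04. Sdha of complex II did not pass (0.11, adjusted p = 0.083). Of the 13 subunits encoded by the mitochondrial genome 10 were higher, such as mt-Cytb (0.33 ± 0.03), and 1 was lower. That one was mt-Nd6, at 110, 88.1, 63.4 and 66.5 CPM and at 78.0, 68.3, 50.3 and 44.1 CPM (-0.68 ± 0.07, adjusted p = 8e-07). It is the one subunit coded on the other strand of the mitochondrial genome. On plain totals 6 of the 13 were higher.

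Ribosomal protein genes rose as broadly, by less. Of 83 tested, 81 were higher and 0 lower, with a median of 0.32, and 75 were higher on plain totals. At an unadjusted p of 0.05 edgeR had 0 lower, and DESeq2 called 79 higher and 0 lower. Rplp0 went from 1243 through 1288 and 1455 to 1517 CPM and from 1330 through 1457 and 1554 to 1682 CPM. The summed level of the list went from 89130 to 103500 CPM and from 93660 to 108700 CPM. Of 22 translation factors 15 were higher and 0 lower (median 0.26), among them Eif1 and Naca, and 2 were lower at an unadjusted p of 0.05 by edgeR and 0 were called lower by DESeq2. On plain totals 15 were higher and 4 lower.

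Genes of entry into the ER and of early transport out of it rose as well. Of 38 genes of the translocon, signal peptidase, early glycosylation and transport between ER and Golgi, 25 were higher and 2 lower (median 0.27), and 21 and 2 on plain totals. Kdelr1, Kdelr2, Sar1b, Sec13, Tmed2 and Tmed10, which act in transport between ER and Golgi, were among the higher. Sec61g, a translocon subunit, went from 402 to 570 CPM and from 393 to 510 CPM, a rise at every step in both libraries (0.54 ± 0.04, adjusted p = 5.4e-08, edgeR). Sec61b rose by 0.56 ± 0.05, and Dad1, of the oligosaccharyltransferase, by 0.48 ± 0.04. Rpn1 of the same enzyme did not pass (0.09, adjusted p = 0.16). ER folding and unfolded protein response genes were mixed. Of 35 tested, 14 were higher and 3 lower with a median of 0.10, and 8 were higher and 8 lower on plain totals, where the median was -0.01. Selenok (0.48 ± 0.05) and Ppib (0.38 ± 0.05) rose. Hspa5, the main ER chaperone and a sentinel of ER stress, was at 527, 513, 499 and 510 CPM and at 594, 596, 568 and 557 CPM and did not pass (0.03, adjusted p = 0.57).

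**Figure D4:**
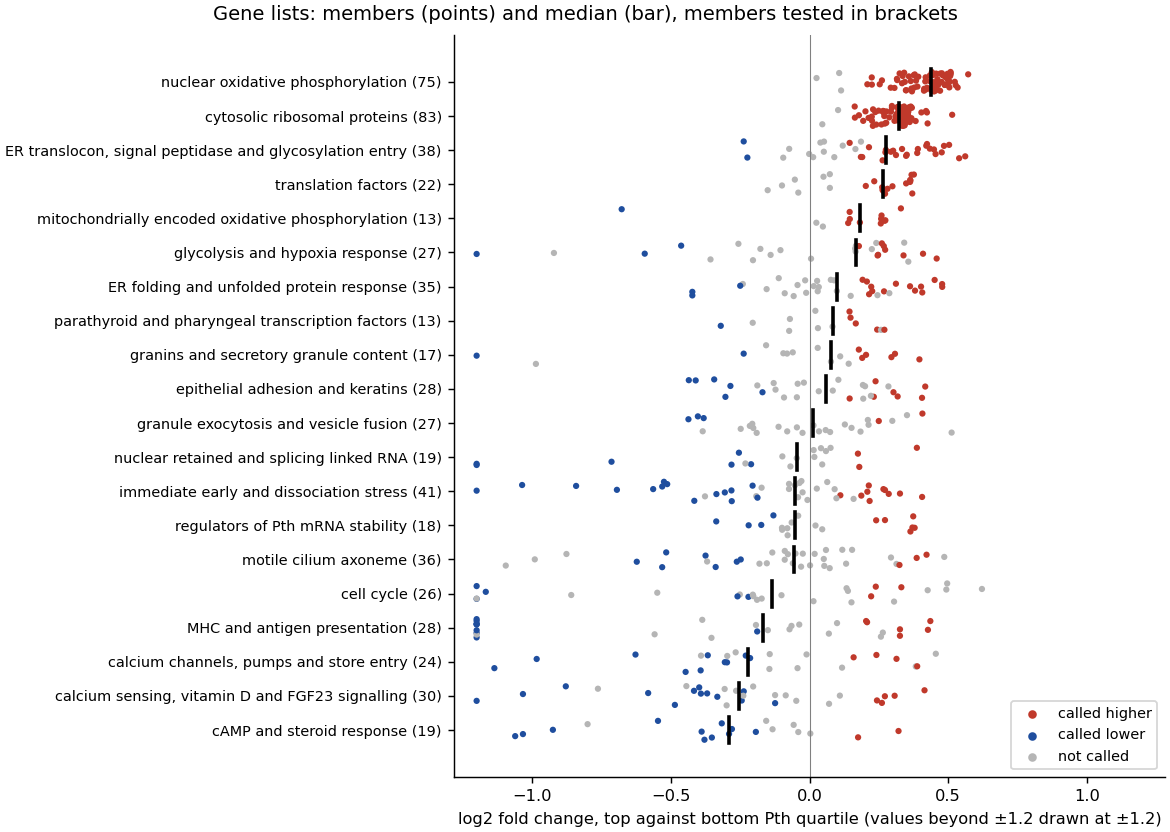
log2 fold change of top against bottom Pth quartile (x axis) of each tested member (points) of 20 gene lists (y axis), with the list's median as a black bar; red points passed the test as higher, blue as lower and grey did not pass. Respiratory chain and ribosomal protein genes lie almost wholly to the right, with medians of 0.44 and 0.32, and calcium sensing genes mostly to the left.

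Secretory granule genes went both ways. Of 17 tested members of the granule content list 6 were higher and 2 lower (median 0.08), and 2 and 2 on plain totals. With TMM scaling the share higher was above the 15.2% of all tested genes, and the share lower was below their 17.1%. Besides Chga, Cd63, a tetraspanin of granule and endosome membranes, rose by 0.40 ± 0.05. Spp1, osteopontin, was at 463, 514, 542 and 506 CPM in replicate 1 and at 770, 661, 589 and 588 CPM in replicate 2 (-0.06, adjusted p = 0.65). Its log2 fold change was -0.29 without replicate 1 and 0.24 without replicate 2. Of 27 exocytosis genes 2 were higher and 3 lower, smaller shares than the 15.2% and 17.1% of all tested genes. The vesicle SNARE gene Vamp8 rose by 0.41 ± 0.05, and the active zone genes Rims2 and Unc13b fell by 0.44 ± 0.06 and 0.40 ± 0.07 on the log2 scale. Rims2 and Unc13b were at 0.05 (adjusted p = 0.81) and 0.12 (adjusted p = 0.44) in cells matched on their long gene share. Vamp8 kept its call there (0.15, adjusted p = 0.048, edgeR) and Cd63 did not (0.08, adjusted p = 0.35). Sytl4, encoding the Rab27 effector granuphilin, did not pass (-0.11, adjusted p = 0.086).

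Receptors and signal carriers of calcium sensing were lower more often than higher. Of 30 tested genes of this list, which also holds vitamin D and FGF23 signalling, 5 were higher and 13 lower, with a median of -0.25, and 2 and 17 on plain totals. The match on long gene share left 1 of 29 higher and 1 lower, with a median of 0.01. Beside Casr, Itpr1, the inositol trisphosphate receptor, went from 598 to 432 CPM and from 468 to 326 CPM, and fell at every step (-0.39 ± 0.04, adjusted p = 6.1e-07, edgeR). The phospholipase gene Plcb1 fell by 0.33 ± 0.04 and the G protein gene Gnaq by 0.37 ± 0.06 (-0.22 without replicate 2). In the matched cells Itpr1 was at 0.08 (adjusted p = 0.35) and Gnaq at -0.07 (adjusted p = 0.63), and Plcb1 was called higher (0.14, adjusted p = 0.010). Gnas, which encodes the stimulatory G protein, went the other way, from 12120 through 13320 and 13560 to 14940 CPM and from 12980 through 14660 and 15610 to 16150 CPM (0.41 ± 0.03, adjusted p = 4.5e-08). It lost its call in the matched cells too (0.11, adjusted p = 0.087, edgeR). The vitamin D receptor gene Vdr, named after its values were seen, was at 251, 255, 260 and 226 CPM and at 393, 371, 365 and 323 CPM (-0.12 ± 0.05, adjusted p = 0.046), and its log2 fold change was -0.04 without replicate 2. Klotho, Kl, the co-receptor for FGF23, was at 1073 and 905 CPM in the bottom and top quartile of replicate 1 and at 973 and 881 CPM in replicate 2. It did not pass with TMM scaling (-0.09, adjusted p = 0.094) and did on plain totals (-0.19, adjusted p = 0.00057). Its log2 fold change was -0.04 without replicate 1 and -0.13 without replicate 2.

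Of 24 calcium channel, pump and store entry genes 4 were higher and 10 lower (median -0.22). Without cells rich in other cell types' markers 4 were higher and 6 lower (median -0.07), and in cells matched on their long gene share 1 and 1 (median 0.00). The L-type channel genes Cacna1d (-0.39 ± 0.05) and Cacnb2 (-0.30 ± 0.04) fell. Orai1, the pore of store-operated entry, rose from 188 to 244 CPM and from 181 to 209 CPM (0.39 ± 0.05). In cells matched on their long gene share Cacnb2 turned to 0.40 (adjusted p = 0.00069, edgeR). Cacna1d (-0.12, adjusted p = 0.32) and Orai1 (0.15, adjusted p = 0.17) lost their calls there. Of 18 regulators of Pth mRNA stability 6 were higher and 4 lower, against 15.2% and 17.1% of all tested genes. In the cells matched on their long gene share 0 were called higher and 0 lower. Dynll1, which binds Pth mRNA, rose by 0.37 ± 0.05 and lost its call in the matched cells (0.02, adjusted p = 0.91, edgeR).

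The transcription factors of the gland changed by small amounts. Of 13 tested, 5 were higher and 1 lower (median 0.08), against 15.2% and 17.1% of all tested genes. On plain totals 1 was higher and 1 lower with a median of -0.02, against 9.3% and 24.8% of all tested genes. Eya1, a long gene of 141282 bases, fell from 247 to 173 CPM and from 224 to 174 CPM (-0.32 ± 0.05). It turned to 0.21 (adjusted p = 0.0088) in cells matched on their long gene share. Pax9 was at 226 and 215 CPM and at 249 and 236 CPM and did not pass (0.03, adjusted p = 0.65).

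Immediate early and dissociation stress genes went both ways, with 10 of 41 higher and 15 lower, against 15.2% and 17.1% of all tested genes. Egr1 fell from 411 to 312 CPM and from 572 to 333 CPM (-0.51 ± 0.08, and -0.29 without replicate 2), and Fos did not pass, at 2304 and 2305 CPM and at 2119 and 1901 CPM (0.03, adjusted p = 0.68, with -0.05 without replicate 1 and 0.11 without replicate 2). Of 19 cAMP and steroid response genes 2 were higher and 11 lower (median -0.29). Zbtb16 and Fkbp5 fell at every step in both libraries, while Sgk1 of the same list was higher (0.32) and Tsc22d3 did not pass (-0.04). Zbtb16 went from 53.6 through 34.1 and 31.4 to 25.6 CPM and from 49.3 through 28.2 and 27.2 to 21.1 CPM (-1.06 ± 0.09, adjusted p = 7.8e-08, edgeR). Fkbp5 went from 124 through 109 and 91.7 to 79.2 CPM and from 124 through 102 and 90.0 to 78.4 CPM (-0.55 ± 0.05, adjusted p = 5.4e-07). Matched on the long gene share, both were still lower (-0.66 and -0.30). With marker-rich cells left out as well, Zbtb16 lost its call (-0.40, adjusted p = 0.16) and Fkbp5 passed (-0.27, adjusted p = 0.042).

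Of 27 glycolysis and hypoxia genes 9 were higher, such as Gapdh (0.41 ± 0.04), and 3 lower (median 0.17), and 4 and 7 on plain totals. Of 28 epithelial genes 7 were higher and 6 lower, against 15.2% and 17.1% of all tested genes. Krt18 (0.42 ± 0.05) and Epcam (0.23 ± 0.04) were among the higher. Of 36 cilium axoneme genes 3 were higher and 7 lower. Their median was -0.06, and 0.10 in cells matched on their long gene share. The shares called are near or below the 15.2% and 17.1% of all tested genes, as are those of the cell cycle list. Among them Spag6l fell by 0.62 ± 0.08 and Rsph9 rose by 0.32 ± 0.05. Of 26 cell cycle genes 3 were higher and 5 lower (median -0.14), and in the matched cells 1 and 9 (median -0.39). Mki67, a gene of dividing cells, was low throughout, at 7.43 and 2.16 CPM in the bottom and top quartile of replicate 1 and at 5.72 and 2.96 CPM in replicate 2 (-1.17 ± 0.32, adjusted p = 0.0088). One cell held 36.2% and 25.3% of its bottom quartile UMIs. Of 19 nuclear retained and splicing linked RNAs 3 were higher and 6 lower, against 15.2% and 17.1% of all tested genes. Kcnq1ot1, a long antisense RNA of an imprinted locus, fell at every step, from 251 to 137 CPM and from 267 to 156 CPM (-0.71 ± 0.05).

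Among the single genes with the largest rises, Mt3, Spink8 and Wfdc2 had the highest levels. Mt3, a metallothionein, was at 740, 919, 989 and 1115 CPM in replicate 1 and at 811, 1152, 1253 and 1316 CPM in replicate 2, a rise at every step (0.75 ± 0.04, adjusted p = 5e-09, edgeR). Spink8, of a family of serine protease inhibitors, was at 799, 1026, 1044 and 1203 CPM and at 1399, 1595, 1646 and 1879 CPM (0.61 ± 0.04). Wfdc2, another small secreted protein of the protease inhibitor type, was at 374, 434, 513 and 571 CPM and at 289, 341, 356 and 412 CPM (0.66 ± 0.05). In cells matched on their long gene share Spink8 kept its call (0.45), and Mt3 (-0.10, adjusted p = 0.62) and Wfdc2 (0.12, adjusted p = 0.21) did not. Tmigd3 (0.69 ± 0.06), Actn3 (0.67 ± 0.09), Tbc1d7 (0.64 ± 0.18), Nudt8 (0.62 ± 0.13) and Wdr27 (0.62 ± 0.10) also rose. Tmigd3 overlaps Adora3 on the same strand, so that reads may be shared. Klk1b22 and Klk1b26, at 0.80 ± 0.24 and 0.74 ± 0.23, are close copies of the kallikrein family and uncertain. Tbc1d7 was 0.20 without replicate 1 and 1.35 without replicate 2, and Klk1b26 was 0.45 without replicate 1.

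A pair of the named higher genes rested on few cells. S100a9, a neutrophil gene, was at 1.90, 0.939, 2.30 and 48.0 CPM in replicate 1 and below 1 CPM in every quartile of replicate 2, and 95.5% of its top quartile UMIs in replicate 1 came from 1 cell. Its log2 fold change was 3.90 ± 0.54, and 1.15 without replicate 1. Serpinb12 was at 21.0, 27.1, 10.3 and 40.9 CPM and at 29.1, 37.0, 11.1 and 52.3 CPM, with no steady rise. A Serpinb12 UMI was found in only 5.92% and 11.3% of bottom and top cells of replicate 1 and in 6.24% and 8.39% of those of replicate 2.

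The 12 genes with the largest falls were highest in the bottom quartile of both libraries and low in the others. Lama2, a laminin of stromal cells, was at 53.9, 0.670, 1.36 and 1.26 CPM in replicate 1 and at 45.5, 4.53, 0.668 and 1.95 CPM in replicate 2 (-4.70 ± 0.30, adjusted p = 9.2e-09, edgeR). Cd74, the invariant chain of MHC class II, was at 173, 11.8, 10.4 and 11.2 CPM and at 204, 52.6, 7.55 and 9.30 CPM (-4.24 ± 0.28). A single cell held 45.4% of the Cd74 UMIs in the bottom quartile of replicate 1. Col1a2, Slit3, Pid1, C1qa, C1qb, H2-Eb1, H2-Aa, Lsamp, Prkg1 and Igf1 had the same shape, with log2 fold changes from -4.86 to -3.56. The summed CPM of the 9 fibroblast markers was 573, 19.8, 19.8 and 20.0 in replicate 1 and 527, 73.1, 25.0 and 69.9 in replicate 2, and all 9 were called lower. The dendritic cell markers summed to 252 and 30.5 CPM in the bottom and top quartile of replicate 1 and to 304 and 27.6 CPM in replicate 2, with Flt3, Cd209a and Xcr1 at 0 in the top quartile. The macrophage markers summed to 58.0 and 14.6 CPM and to 162 and 10.6 CPM, and 6 of 8 tested were lower. Endothelial markers were at 5.38 and 4.69 CPM and at 57.5 and 16.7 CPM. The neutrophil markers and those of thyroid C cells were high in the top quartile of replicate 1 alone, at 84.8 and 33.0 CPM. Scrublet, a doublet caller, marked 11 cells of the bottom quartile of replicate 1, and 4 and 3 cells of the bottom and second quartiles of replicate 2.

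Leaving out the 33 and 107 cells whose share of such markers was above the outlier limit kept most calls and ended these. Then 2038 genes were higher (14.6% of 13994 tested) and 1939 lower (13.9%), and 1928 and 1718 of the main calls remained. None of the 12 genes with the largest falls kept its call. Col1a2, C1qa, C1qb and Cd74 are themselves among the markers that set the limit. Their loss therefore follows in part from the choice of cells and is no separate check. The markers also hold members of the MHC and antigen presentation list, Cd74 among them. Lama2 was at -0.03 (adjusted p = 0.98), Cd74 at 0.34 (adjusted p = 0.15) and H2-Aa at 0.59 (adjusted p = 0.092), and Slit3 and Pid1 were too low to be tested. The MHC and antigen presentation list went from 6 higher and 9 lower of 28 tested (median -0.17) to 9 higher and 0 lower of 25 by edgeR (median 0.28), with 0 lower at an unadjusted p of 0.05 as well. The immediate early list went from 15 lower to 7 lower, with 10 higher in both fits, 8 of them shared. All 72 respiratory chain genes called higher before were called higher again, and 82 ribosomal protein genes were then higher, among them the 81 called before.

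Among the genes that fell and kept their call without those cells, a further set was named after its values were seen. Grip1 (chromosome 10, 119453830 to 120087261), a PDZ scaffold protein, was at 659, 458, 424 and 293 CPM in replicate 1 and at 396, 318, 270 and 229 CPM in replicate 2, a fall at every step (-0.86 ± 0.06, adjusted p = 1.6e-08, edgeR). Opcml, a cell adhesion protein, was at 137, 75.5, 85.6 and 50.9 CPM and at 98.3, 76.6, 59.2 and 51.8 CPM (-1.01 ± 0.11). Galntl6, a glycosyltransferase gene, was at 285, 164, 130 and 168 CPM and at 185, 146, 136 and 103 CPM (-0.71 ± 0.12). Rora, a nuclear receptor, went from 775 to 509 CPM and from 521 to 353 CPM (-0.48 ± 0.04). Atg4a, of autophagy, Tgfbr1, a TGF-beta receptor, and Shisa6 fell by 0.88 ± 0.09, 0.87 ± 0.08 and 0.78 ± 0.08. Atg4a (-0.08, adjusted p = 0.73) and Tgfbr1 (-0.20, adjusted p = 0.20) lost their call in cells matched on their long gene share. Grip1, Opcml, Galntl6 and Rora span from 633432 to 1138590 bases.

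The called genes differed in genomic span. Genes called higher had a median span of 8872 bases and genes called lower of 88799, against 23549 for all tested genes. A span of at least 100000 bases was found in 1.00% of the higher, 44.7% of the lower and 14.1% of all tested genes. The 14475 genes with a span in GENCODE M21 were cut into 10 equal bins by span. The median log2 fold change went from 0.28 in the shortest bin through 0.03 in the fifth to -0.36 in the longest, and fell at every step. It did so within each library, from 0.30 to -0.38 in replicate 1 and from 0.27 to -0.34 in replicate 2. In the shortest bin 35.2% of genes were higher and 3.94% lower, and in the longest 0.62% and 58.8%. The oxidative phosphorylation, ribosomal protein and calcium channel lists had median spans of 7284, 3289 and 106700 bases. The labels do not tell whether reads in introns were counted.

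The ranking was then repeated within 10 bins of the long gene share, so that each quartile held cells of all long gene shares. The Pth ratio between top and bottom quartile was 1.58 and 1.56 in this ranking. The number of genes higher was 147 (1.01% of 14541 tested) and of genes lower 636 (4.37%), and 94 and 557 of the main calls remained. Medians by span bin then lay between 0.00 and 0.05. For the longest bins this follows in part from the matching, since their UMIs make up the matched share. Itpr1, Plcb1, Gnaq, Rims2, Unc13b, Eya1 and Cacnb2 also span at least 100000 bases and are part of that share. Nuclear respiratory chain genes had 9 of 75 higher with a median of 0.09, ribosomal protein genes 2 of 83 with a median of 0.00, and ER entry and transport genes 6 of 38 with a median of 0.10. tdTomato was still higher (0.31, adjusted p = 4.8e-06, edgeR), as were Ndufa1 (0.27, adjusted p = 0.00016) and Sec61g (0.20, adjusted p = 0.0017). Of 73 called genes described above, without markers of other cells named only at 0 and the genes of transport between ER and Golgi, 33 kept the direction of their call in this ranking, while Cacnb2, Eya1, Gfp and Plcb1 were called in the opposite one. The 33 were 13 higher and 20 lower genes, and the lower ones include the 12 genes with the largest falls. Chga was at 0.07 (adjusted p = 0.27) and Rora at 0.02 (adjusted p = 0.90). With the marker-rich cells left out as well, 33 genes were higher (0.236%) and 26 lower (0.186%), 20 and 14 of them among the main calls. Of the 73 genes 9 then kept the direction of their call, 5 higher and 4 lower, and Gfp was called in the opposite one. tdTomato (0.26), Spink8 (0.37), Ndufa1 (0.21), Grip1 (-0.29) and Galntl6 (-0.60) then passed. Of the nuclear respiratory chain, ribosomal protein and ER entry and transport genes called higher in the main comparison, 1, 0 and 1 kept their call. The part of long gene share in the main calls was not tested beyond this, and its own source was not tested.

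**Figure D5:**
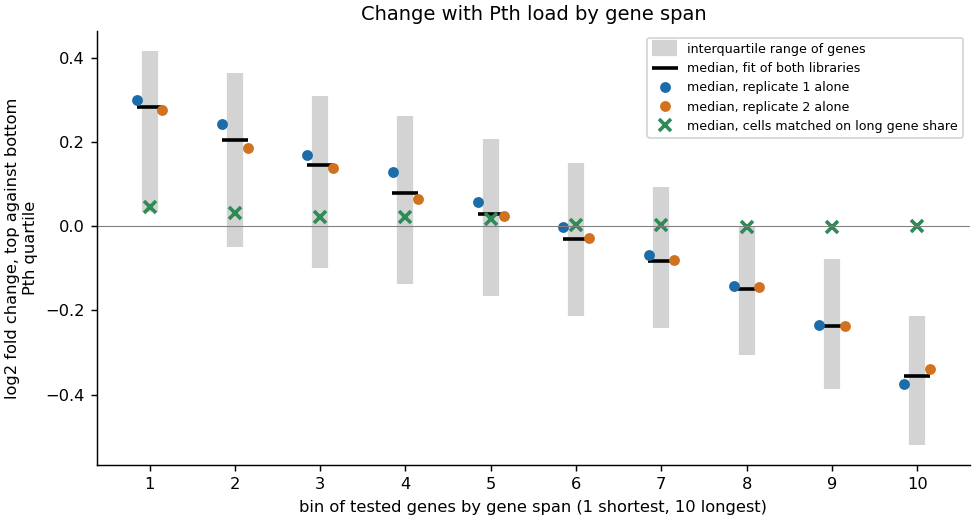
Median log2 fold change of top against bottom Pth quartile (y axis) for 10 bins of the tested genes by genomic span (x axis), as black bars for both libraries, dots for each library alone and grey bars for the interquartile range over genes. Medians fall from 0.28 to -0.36 with span, and the crosses, for cells matched on their long gene share, lie between 0.00 and 0.05. For the longest bins this follows in part from the matching.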

How the data were processed

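The 2 pools of glands gave 1 droplet library each, made with a 3' kit after enzymatic digestion and removal of doublets by flow cytometry, per the labels' protocols. The authors deposited raw UMI counts for each barcode, made with Cell Ranger 7.0.0 on mm10, per the submitters' processing notes. The sources used here do not give the cell calling settings or the use of intronic reads.

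The files held 1406 and 3518 barcodes. Filtering left out 147 and 199 barcodes, and the parathyroid cells held 31116906 and 71788267 UMIs. Scrublet (scanpy 1.11.5) calls were kept and their removal tried as an alternative. UMIs other than Pth were summed per library and quartile (8 sums) and tested with edgeR 4.0.16 (TMM, filterByExpr, quasi-likelihood) with quartile and library as factors, top against bottom, with 3 residual degrees of freedom and Benjamini-Hochberg adjustment. The library is a block because its quartiles come from the same mice, and the deviations of a library's quartiles from the quartile means correlated across genes at 0.46 to 0.53. Alternatives used DESeq2 1.42.0 and limma 3.58.1 (pseudocount 1 CPM). The script was tested on simulated counts. Gene spans came from GENCODE M21 (GRCm38). Named genes were the 12 largest rises and falls among called genes of at least 20 CPM with 1 sign in both libraries, without mitochondrial, ribosomal protein and unnamed genes, plus markers, reporters, and from each list the called members with the lowest p, 4 at most, and the uncalled one with the highest CPM. The list members printed are a selection of these, and some results are not reported here. The members and the 21 gene lists were chosen with earlier results of these data known. Cells of a library are not replicates. The limit on markers of other cell types was the median share plus 3 median absolute deviations in each library.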

Additional observations from a re-analysis of the deposited data

How the results depend on the processing

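The counts of genes higher and lower were 2201 and 2479. They were 1104 and 1075 with DESeq2, 1247 and 1260 in cells thinned to 10000 UMIs, 1191 and 3187 with each cell weighted the same (limma), and 1347 and 3594 on plain totals. With no replicate block they were 12 and 176. The cause was not tested for these, beyond fewer UMIs in the thinned cells. In cells matched on their long gene share they were 147 and 636, and with the marker-rich cells left out too 33 and 26. The other planned settings stayed within 1.5 times. No count was made without a replicate, since 1 library leaves no test, and for genes named in the text that passed the test the values without each one stand beside them where they moved by over 1.5 times.

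The log2 fold changes of genes named in the text whose sign changed are given by setting, where values of about 0.1 or less are not read as directions. Without marker-rich cells at the planned limit they were C1qb 0.036, Cd74 0.32, H2-Eb1 0.66, C1qa 0.75, H2-Aa 0.62, Lsamp 0.11, Igf1 0.39 and Pax9 -0.0073. At a limit added after seeing the data, without Rora, which parathyroid cells hold themselves, they were C1qb 0.11, Cd74 0.34, H2-Eb1 0.63, C1qa 0.70, H2-Aa 0.59, Lsamp 0.22, Igf1 0.40 and Pax9 -0.0016. Matched on the long gene share, also added after seeing the data, they were Klk1b22 -0.075, Mt3 -0.097, Casr 0.049, Gfp -0.20, Eya1 0.21, Itpr1 0.082, Plcb1 0.14, Cacnb2 0.40, Rims2 0.046, Unc13b 0.12, Sytl4 0.16, Rpn1 -0.031, Fos -0.064, Vdr 0.048 and Rora 0.019. With both added settings together they were Klk1b22 -0.23, Mt3 -0.097, Klk1b26 -0.15, Lama2 0.67, Cd74 0.20, H2-Eb1 0.48, C1qa 0.052, Lsamp 0.45, Igf1 0.17, Chga -0.0081, Gfp -0.30, Eya1 0.12, Itpr1 0.012, Plcb1 0.065, Cacnb2 0.28, Unc13b 0.080, Sytl4 0.098, Rpn1 -0.11, Fos -0.046 and Epcam -0.00079. With each cell weighted the same they were Pax9 -0.15, Rpn1 -0.030, Hspa5 -0.12, Sdha -0.019 and Fos -0.071, and on plain totals, added after seeing the data, Pax9 -0.075, Rpn1 -0.016, Hspa5 -0.073 and Fos -0.080. Ranked by the tdTomato share they were Serpinb12 -2.73 and Fos -0.069. Within 10 bins of the Malat1 share, added after seeing the data, they were Spp1 0.21 and Malat1 0.13. In thinned cells they were Pax9 -0.022 and Fos -0.014. The causes were not tested.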
